A study of Homo sapiens with 18 samples.

Results

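The proteasome genes of MSTO-211H cells, an established line of human malignant pleural mesothelioma, were taken from a microarray study of 2 drugs, piroxicam, a non-steroidal anti-inflammatory drug, and cisplatin, which binds DNA. A probe set of the array belonged to the group when its only gene symbol in the platform annotation began with PSMA, PSMB, PSMC, PSMD, PSME, PSMF or PSMG followed by a number. This took 65 of the 22283 probe sets, from 41 genes. 39 of these genes encode subunits, assembly factors or regulators of the proteasome. The other 2, PSMC3IP and PSME3IP1, share only the start of the symbol and are described apart. Of 48 genes listed by role, 9 had no probe set of their own, among them PSME2, PSMA6, PSMC5 and PSMD7, and 5 probe sets that name a matching gene together with another were left out. The 18 HGU133A arrays hold RNA of cells given piroxicam at 760 µM (P), cisplatin at 4.5 µg/mL (C) or the pair of them (P/C), and of cells left untreated. There were 2 arrays of each of the 4 kinds of cells after 8 h. After 24 h there were 3 of P, 3 of C, 2 of P/C and 2 of untreated cells. All groups are 1 cell line in culture, so that every value describes these cells alone, and in a bulk sample fewer cells that express a gene and less RNA per cell cannot be told apart.

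The proteasome degrades proteins that carry ubiquitin chains. Its core is a barrel of alpha rings, which form the gate, and beta rings, which hold the cutting sites. The cap that docks on the gate has a base, whose ATPases of the PSMC family unfold the substrate, and a lid, whose PSMD subunits surround the deubiquitinating enzyme PSMD14. Assembly chaperones (the PSMG genes, PSMD5, PSMD9 and PSMD10) help to build these parts and are not in the finished particle. The PSME activators can take the place of the cap, and PSMF1 inhibits the core in vitro. In the immunoproteasome, which cells make after interferon, PSMB8, PSMB9 and PSMB10 replace the cutting subunits PSMB5, PSMB6 and PSMB7.

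The promoters of PSMD12, PSMC2 and PSME3, the 3 genes with a probe set called lower with P at 24 h among the 31 tested, are shown because the genes encode 3 different parts of the particle, a lid subunit, a base ATPase and an activator. Each window is from RefSeq on GRCh38.p14, runs 5′ to 3′ on the strand of the gene, and covers 250 bases before to 50 after the gene's start. Capitals mark TGACNNNGC, the core of the antioxidant response element to which NFE2L1 binds in proteasome promoters, and CCAAT, the box of NF-Y, searched on both strands. The windows are chr17:67366528-67366827 (minus strand) for PSMD12, chr7:103347393-103347692 (plus strand) for PSMC2 and chr17:42833147-42833446 (plus strand) for PSME3.
PSMD12: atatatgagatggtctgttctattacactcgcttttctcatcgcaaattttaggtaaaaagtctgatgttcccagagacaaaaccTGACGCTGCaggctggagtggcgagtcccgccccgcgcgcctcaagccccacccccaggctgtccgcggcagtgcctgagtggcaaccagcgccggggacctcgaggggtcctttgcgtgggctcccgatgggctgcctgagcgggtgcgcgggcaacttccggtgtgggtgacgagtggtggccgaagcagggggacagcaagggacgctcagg
PSMC2: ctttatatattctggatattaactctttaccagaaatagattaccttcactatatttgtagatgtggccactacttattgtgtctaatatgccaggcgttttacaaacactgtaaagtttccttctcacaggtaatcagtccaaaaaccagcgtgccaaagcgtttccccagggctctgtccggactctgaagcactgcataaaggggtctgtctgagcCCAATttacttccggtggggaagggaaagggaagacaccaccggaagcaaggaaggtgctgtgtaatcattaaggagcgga
PSME3: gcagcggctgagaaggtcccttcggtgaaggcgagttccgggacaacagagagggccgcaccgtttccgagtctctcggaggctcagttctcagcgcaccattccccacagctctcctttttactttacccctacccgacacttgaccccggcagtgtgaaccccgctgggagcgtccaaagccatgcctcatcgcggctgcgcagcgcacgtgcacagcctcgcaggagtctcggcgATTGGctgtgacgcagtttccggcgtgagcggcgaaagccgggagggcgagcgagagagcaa
The PSMD12 window holds 1 match to TGACNNNGC, which begins 165 bases before the start, and no CCAAT. The PSMC2 window holds 1 CCAAT and the PSME3 window 1 on the other strand, read here as ATTGG, and neither holds TGACNNNGC. A window was found for 34 of the 39 genes. TGACNNNGC was in 13 of the 41 windows of these genes (31.71%) and in 13.35% of all 35116 windows, and CCAAT was in 17 of the 41 (41.46%) and in 34.61% of all windows. The matches describe these letters alone and say nothing of what binds there.

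Values are the deposited log2 signals, and a signal of 100 is 6.64 on this scale. A probe set entered the test when its interquartile range over the arrays was at least 0.25 and its signal was at least 100 on at least 25% of them, which kept 3057 probe sets and 31 of the 65 that matched the rule, from 23 genes. 48 of the 65 passed the signal limit alone. Changes were tested with limma over all 3057 probe sets with Benjamini-Hochberg adjustment, and "called" means an adjusted p of at most 0.05 and a log2 fold change of at least 1. Members that did not pass the filter are given with the same fit on 22215 probe sets, and "fit on all probe sets" marks such an adjusted p. Counts of members with an unadjusted p under 0.05 are given without the share of all probe sets at that limit. They therefore do not set the members apart from the array. Several arrays resembled another group more than their own. By the correlation of their deviations over the kept probe sets, C 24 h replicate 1 was closest to untreated 24 h replicate 1 (its mean r with the other C arrays was -0.06), the first P/C array of 24 h and C 24 h replicate 3 to each other (r = 0.76), P/C 24 h replicate 3 to P 24 h replicate 1 (r = 0.78), and untreated 24 h replicate 2 to C 8 h replicate 1 (r = 0.62, against 0.33 with the other untreated array). At 8 h each P array was closest to the P/C array of the same number. Calls and medians that moved without one of these 24 h arrays are given with the value without it. From a list of mesothelial or mesothelioma markers, 13 genes were on the array. Of these the keratins KRT8 and KRT18 were bright, KRT8 between 9.03 and 10.23 on all arrays and KRT18 between 11.07 and 12.01. MSLN, CALB2, WT1 and KRT5 stayed under a signal of 100 on all 18 arrays. KRT7, KRT19, PDPN, THBD, BNC1, UPK1B and UPK3B of the same list are not described here. The leukocyte gene PTPRC, the endothelial gene VWF and the stromal genes COL1A1 and COL1A2, also picked from longer lists, stayed under 100 on all 18 arrays.

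At 24 h piroxicam alone lowered 3 of the 31 tested probe sets, 1 each of PSMD12, PSMC2 and PSME3, and raised none. This is 9.68% of the members, against 11.4% of all tested probe sets called lower, so the share was close to that of the whole array. Without the limit on fold change, 7 members were lower (22.6%, against 22.4% of all) and 1 was higher (3.23%, against 5.95% of all). What the genes shared was a small shift over many members. Among the 48 probe sets that passed the signal limit, all 3 P arrays lay below both untreated arrays in 34 (70.8%, against 38.6% of all such probe sets) and above both in 3 (6.25%, against 19.1%). The 3 that lay above were all of PSMD4.

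**Figure D1:**
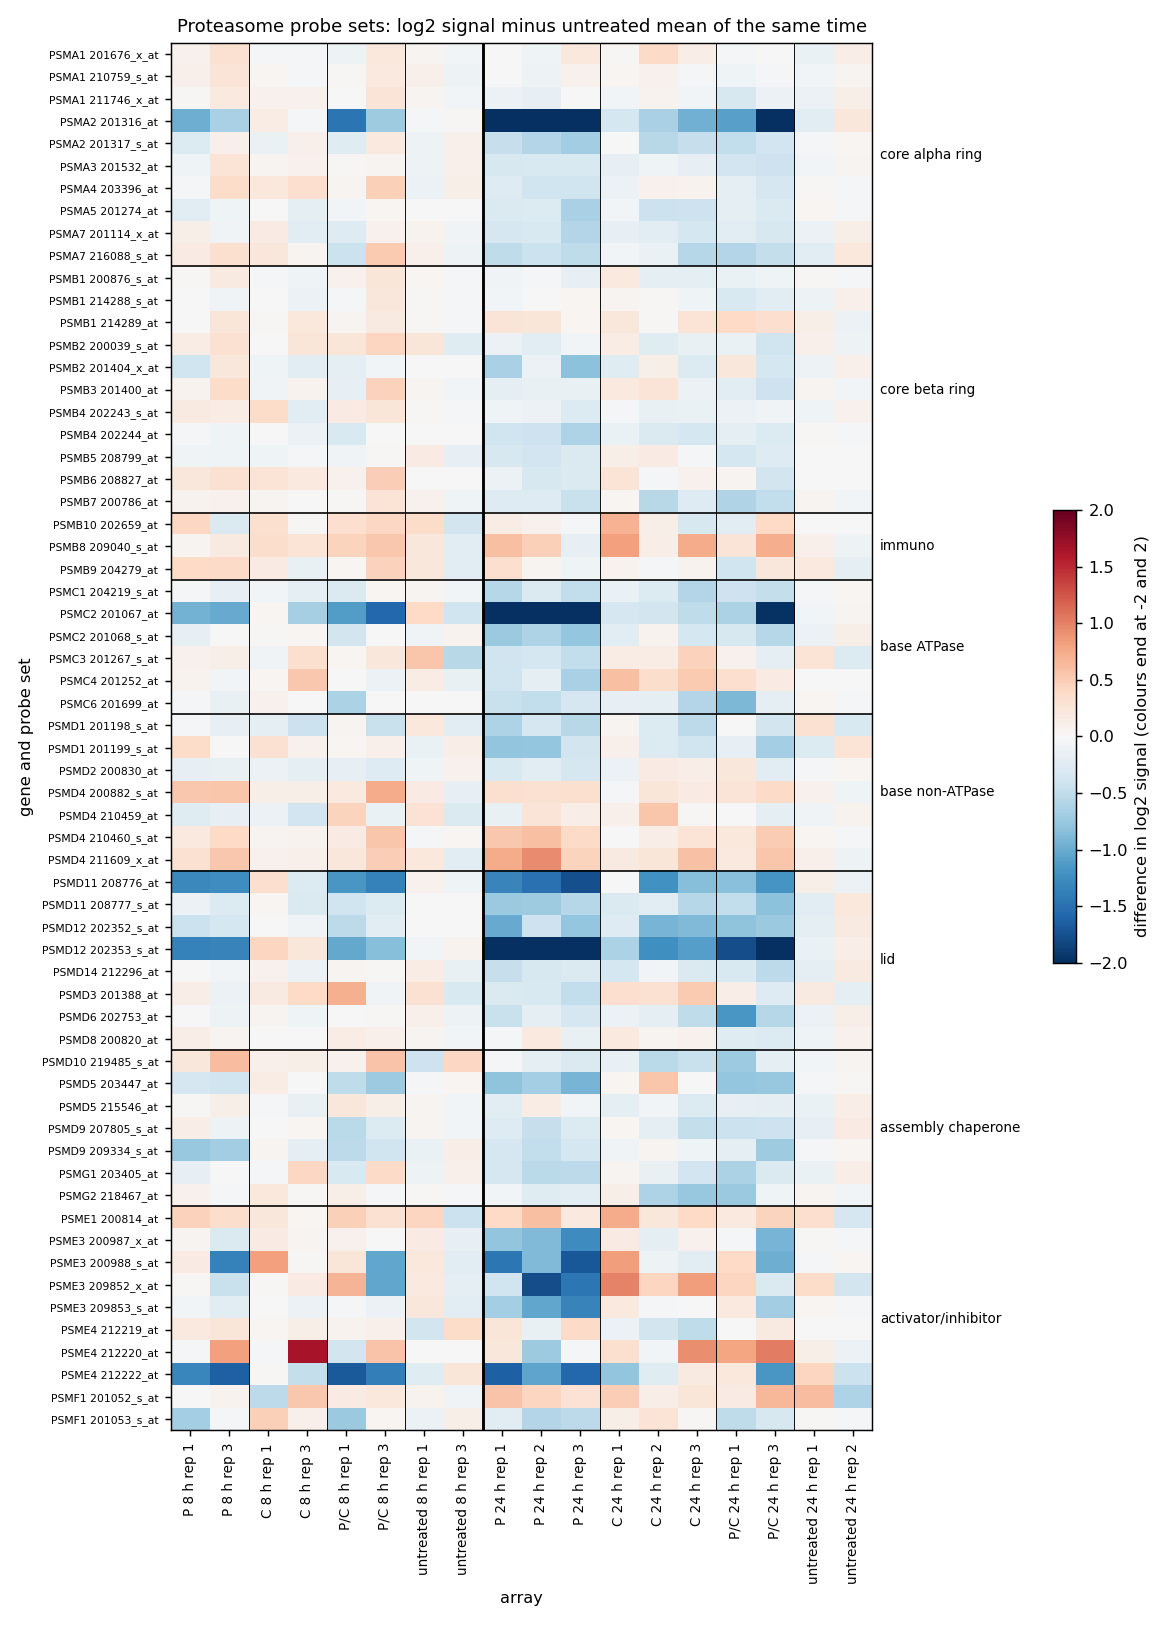
Difference in log2 signal between each array and the mean of the untreated arrays of its time, for the 62 probe sets of proteasome genes in rows, ordered by role, and the 18 arrays in columns. Blue is lower and red higher. The 3 P arrays at 24 h are pale blue over most rows and dark blue for PSMD12 202353_s_at, PSMC2 201067_at and PSMA2 201316_at, while the C arrays are paler.

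The median of all probe sets itself moved with the scaling. Over the 45 probe sets with a mean signal of at least 100 the median log2 fold change with P was -0.33, with 8 higher and 37 lower, against -0.12 for all 3521 such probe sets. After quantile normalization the medians were -0.21 over the members and -0.0013 over all such probe sets. Over all 62 probe sets of the 39 genes, dim ones included, it was -0.34 with 13 higher and 49 lower, against 0.03 for all 22215, and -0.37 to -0.29 with single arrays left out.

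The lid held the largest change. PSMD12 encodes a scaffold subunit of the lid, and its probe set 202353_s_at had log2 signals of 3.75, 3.89 and 3.57 on the P arrays, 6.96, 6.37 and 6.49 on the C arrays, 5.81 and 4.44 on the P/C arrays, and 7.46 and 7.73 on the untreated arrays at 24 h. The 3 P arrays lay close together and below every other array, the P/C arrays came next and differed from each other by more than the arrays of any other group, and no treated array reached the untreated ones. With P the log2 fold change was -3.86 (SE 0.30, limma adjusted p = 3.0e-06, n = 3 and 2), which is 14.5-fold lower. All 3 P signals were under 100. The other probe set of the gene, 202352_s_at, had 8.67, 9.26 and 8.90 with P and 9.51 and 9.86 in untreated cells. It too was lower on each P array, and its log2 fold change was -0.74 (SE 0.23, adjusted p = 0.029), so both probe sets of PSMD12 passed the limit on p and only 1 passed that on fold change.

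The base ATPase PSMC2 showed the same split between its probe sets. 201067_at had 5.05, 4.57 and 4.38 on the P arrays, 7.10, 7.07 and 6.92 on the C arrays, 6.81 and 5.46 on the P/C arrays, and 7.37 and 7.49 on the untreated arrays. All P arrays were below all others, and the 2 P/C arrays stood apart from each other, the first near the C arrays and the other near the P arrays. The log2 fold change with P was -2.76 (SE 0.35, adjusted p = 1.6e-04), or 6.79-fold lower. 201068_s_at had 9.62, 9.75 and 9.59 with P and 10.25 and 10.49 in untreated cells, without overlap, which puts its log2 fold change at -0.72 (SE 0.19, adjusted p = 0.013).

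**Figure D2:**
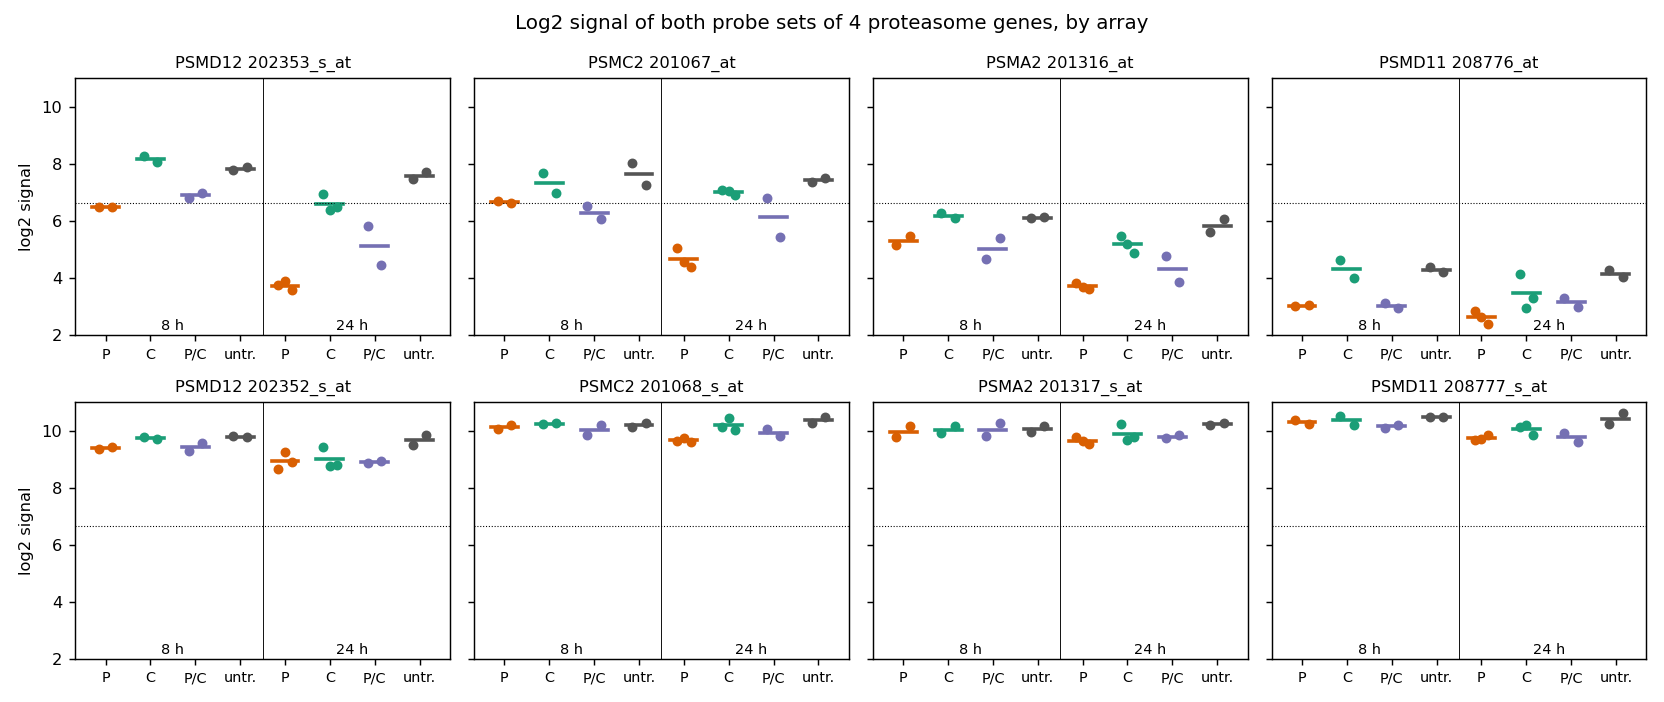
Log2 signal of both probe sets of PSMD12, PSMC2, PSMA2 and PSMD11 on each array (points) with the group means (bars), at 8 h and 24 h. The dotted line is a signal of 100. In each gene the dimmer probe set, above, was lower on every P array than on both untreated arrays at 24 h, and the brighter one, below, had log2 fold changes with P of -0.74 to -0.58.

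PSMA2, of the alpha ring, had the same form with a dimmer probe set. Its probe set 201316_at had 3.84, 3.69 and 3.61 with P and 5.61 and 6.07 in untreated cells, a log2 fold change of -2.13 (adjusted p = 0.0019, fit on all probe sets), while 201317_s_at had 9.78, 9.64 and 9.54 with P and 10.20 and 10.26 in untreated cells (-0.58, adjusted p = 0.057). In PSMD11, a scaffold of the lid, 208776_at had 2.83, 2.65 and 2.39 with P and 4.27 and 4.02 in untreated cells (adjusted p = 0.0077, fit on all probe sets). The P signals were close to or below the array medians of 2.72 to 2.83, the level of most probe sets, so no fold change is given for it. The bright PSMD11 208777_s_at had 9.68, 9.71 and 9.85 with P and 10.22 and 10.62 in untreated cells (-0.68, adjusted p = 0.020). In both genes every P array was below both untreated arrays with either probe set, and the 2 dim probe sets were under a signal of 100 on all arrays. In the fit on all probe sets, 8 of the 65 probe sets that match the rule were called lower with P, against 2.67% of all 22215. Of the 8, 2 were from the genes that are not subunits. The signal limit was passed by 48 of the 65 and by 3893 of the 22215, so these are shares of unlike probe sets. Among the tested probe sets the share called lower was close to that of the whole array, as given above.

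The probe sets of one gene did not always part. Over the 16 proteasome genes with several probe sets, the log2 fold changes with P differed between the lowest and the highest probe set by 0.06 in PSMD9, 0.07 in PSMA7, 0.13 in PSMA1 and 0.14 in PSMD1, and by 1.55 in PSMA2, 1.58 in PSME4, 2.05 in PSMC2 and 3.12 in PSMD12. In the values as deposited the signs differed in PSMA1, PSMB1, PSME4 and PSMF1, with changes of at most 0.18 in the first 2 of these. The places of the probes on the transcripts were not analysed here, so that a loss of 1 transcript form and a loss of the whole gene's RNA cannot be told apart.

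Among the activators PSME3, which forms a ring in the nucleus and opens the core without ubiquitin, was lower with P in all of its probe sets. 209853_s_at had 7.90, 7.54 and 7.25 with P and 8.62 and 8.54 in untreated cells (log2 fold change -1.02, SE 0.25, adjusted p = 0.0085). 200987_x_at had 8.13, 8.04 and 7.67 with P and 8.94 and 8.90 in untreated cells (-0.98, SE 0.25, adjusted p = 0.0098). The P and untreated arrays did not overlap in these bright probe sets, and the changes lay narrowly on either side of the limit on fold change. 209852_x_at had 6.96, 5.60 and 5.92 with P and 7.74 and 7.0 in untreated cells (-1.21, adjusted p = 0.056), and the dim 200988_s_at had 2.57, 3.13 and 2.33 with P and 3.97 and 4.06 in untreated cells (adjusted p = 0.18, fit on all probe sets), with P signals near the array medians. After quantile normalization the change of 209853_s_at was -0.84 (adjusted p = 0.026) and no longer reached the fold limit. Its call was also lost without P 24 h replicate 3 (-0.86, adjusted p = 0.040) and without untreated 24 h replicate 1 (-0.98, adjusted p = 0.054) or replicate 2 (-1.06, adjusted p = 0.059). Without P 24 h replicate 1 the 3 brighter PSME3 probe sets were all called, which brought the count of called members to 5.

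PSMD4, a ubiquitin receptor of the cap, ran the other way. 211609_x_at had 9.17, 9.38 and 8.88 with P and 8.52 and 8.33 in untreated cells, which is a change of 0.71 (SE 0.22, adjusted p = 0.025). It was higher on every P array than on both untreated arrays and was the only tested member with a higher signal at an adjusted p of at most 0.05. 210460_s_at had 8.88, 8.95 and 8.73 with P and 8.40 and 8.30 in untreated cells (0.50, adjusted p = 0.056), and 200882_s_at had 9.38, 9.37 and 9.38 with P and 9.15 and 8.97 in untreated cells (0.32, adjusted p = 0.24). In all 3 the P arrays lay above the untreated ones, and the C and P/C arrays overlapped 1 or both of these groups. The change of 211609_x_at was 0.85 after quantile normalization, and with single arrays left out it was 0.60 to 0.85 at an adjusted p of up to 0.18. The remaining PSMD4 probe set, 210459_at, read between 2.48 and 3.39 on all arrays.

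**Figure D3:**
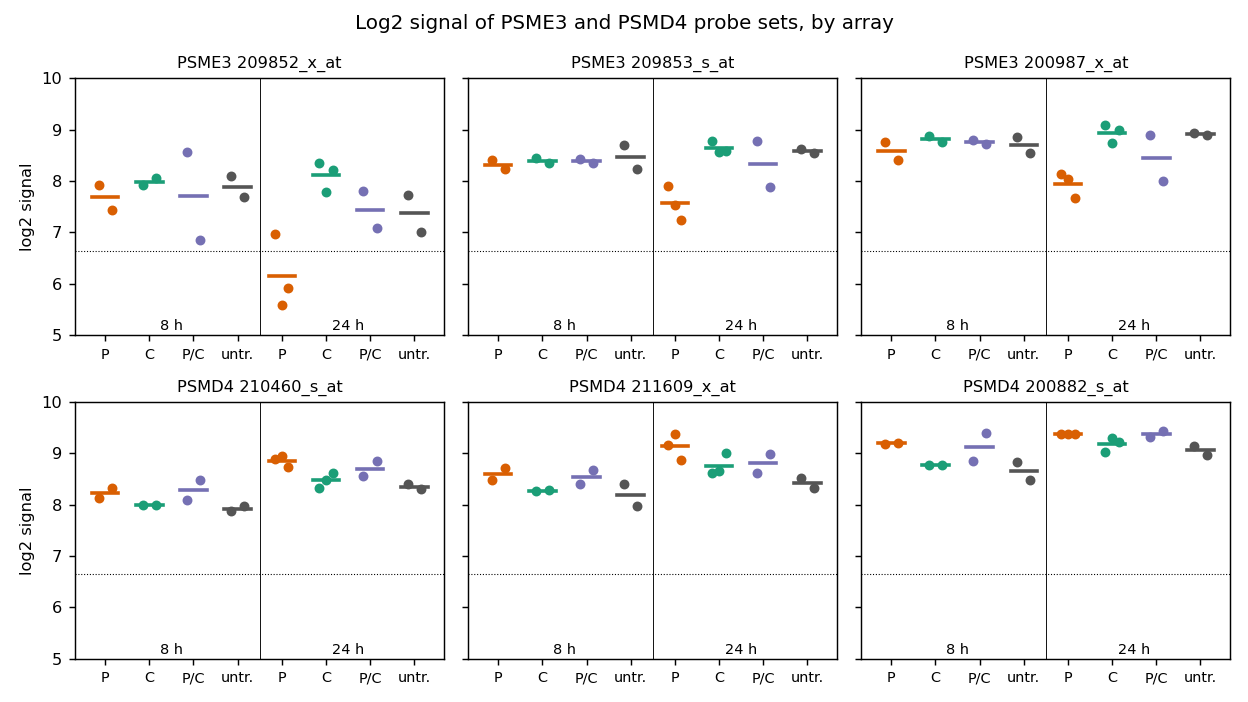
Log2 signal of 3 probe sets of PSME3 (above) and 3 of PSMD4 (below) on each array (points) with the group means (bars). The dotted line is a signal of 100. At 24 h the P arrays lie below the untreated arrays in each PSME3 panel and above them in each PSMD4 panel.

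Taken by role, the medians with P at 24 h stand beside a shift of the array itself, in which 2109 of the 3521 probe sets with a mean signal of at least 100 were lower, with a median of -0.12. The medians by role that follow include dim members, and all 22215 probe sets had a median of 0.03. At a mean signal of at least 100 the medians were -0.42 in the base ATPases, -0.36 in the lid and -0.25 in the chaperones. They were -0.35 in the alpha ring and -0.16 in the beta ring. The 6 probe sets of the base ATPases were all lower, with a median of -0.44, and outside PSMC2 201067_at they ran from -0.72 to -0.40. In the lid 7 of 8 were lower (median -0.52), and PSMD8 was the exception at 0.01, or -0.01 once each array was centred on its median. All 7 of the assembly chaperones were lower (median -0.33), with the lowest value in the dim PSMD5 203447_at, which had 5.45, 5.57 and 5.33 with P and 6.23 and 6.27 in untreated cells (-0.80, adjusted p = 0.0087, fit on all probe sets). The base subunits without ATPase activity were split, with PSMD4 higher and the scaffolds PSMD1 (-0.64 and -0.50) and PSMD2 (-0.28) lower, neither scaffold at an adjusted p of at most 0.05. In the core, 9 of 10 alpha probe sets (median -0.37) and 10 of 11 beta probe sets (median -0.16, close to that of the array) were lower. After quantile normalization 8 of the alpha probe sets (median -0.25), 9 of the beta probe sets (median -0.06) and 6 of the chaperone probe sets (median -0.13) were lower. So were all 6 of the base ATPases (median -0.36) and 7 of the lid (median -0.45). The highest value in the alpha ring was 0.05, in PSMA1 201676_x_at, and that in the beta ring 0.18, in the dim PSMB1 214289_at. The lowest in the beta ring was that of the dim PSMB2 201404_x_at (-0.52, adjusted p = 0.25, fit on all probe sets). The other PSMB2 probe set, 200039_s_at, was at -0.13. PSMB4 202244_at, with 9.71, 9.68 and 9.48 in P and 10.12 and 10.08 in untreated cells, was the beta probe set that passed the limit on p (-0.48, adjusted p = 0.029, fit on all probe sets).

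**Figure D4:**
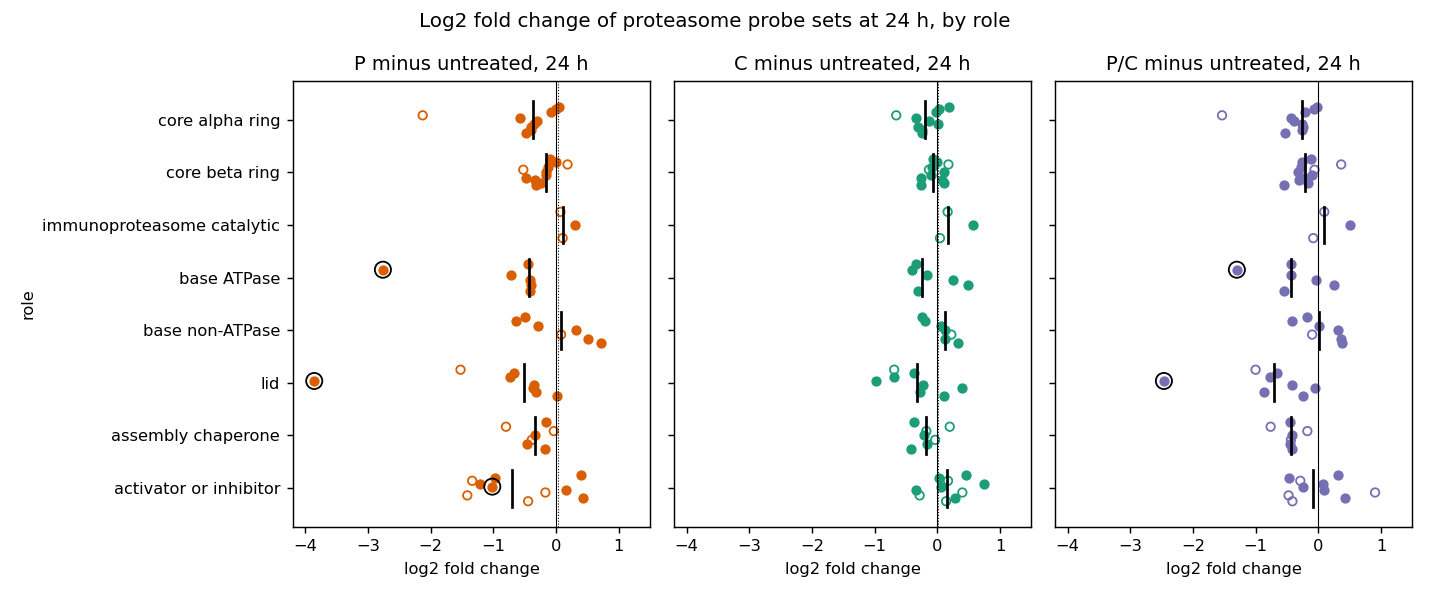
Log2 fold change against untreated cells at 24 h of each proteasome probe set (points), by role, with P, C and P/C. Filled points had a signal of at least 100 on 5 or more arrays, black rings are called, black bars are medians of a role and the dotted line is the median of all 22215 probe sets. Single probe sets of PSMD12, PSMC2 and PSMA2 stand far left with P and P/C, and none is ringed with C.

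The cutting subunits stayed above a signal of 100 on every array, and their interferon-induced replacements did not, and none of the 6 was called. PSMB8 had 6.88, 6.76 and 6.12 with P and 6.38 and 6.19 in untreated cells (log2 fold change 0.30, 95% interval -0.26 to 0.87, adjusted p = 0.41). PSMB10 had 6.59, 6.53 and 6.41 with P and 6.44 and 6.44 in untreated cells (0.07), and PSMB9 had 5.24, 4.95 and 4.82 with P and 5.10 and 4.71 in untreated cells (0.10). The groups overlapped in all 3. A signal of 100 was reached on 5 arrays by PSMB8, on 2 by PSMB10 and on 0 by PSMB9. The 5 were all of treated cells at 24 h, so that PSMB8 entered the test only through arrays where it was high. Among the constitutive subunits PSMB5 had 9.50, 9.43 and 9.52 with P and 9.80 and 9.82 in untreated cells (-0.33, interval -0.57 to -0.09, adjusted p = 0.11, fit on all probe sets). PSMB6 had 9.10, 8.90 and 8.94 with P and 9.23 and 9.22 in untreated cells (-0.24), and PSMB7 had 10.59, 10.59 and 10.41 with P and 10.91 and 10.79 in untreated cells (-0.32). For these 3 the P arrays lay just below the untreated arrays without overlap. With C PSMB8 had 7.10, 6.41 and 7.03, above both untreated arrays (0.57, adjusted p = 0.36), and with P/C 6.55 and 7.01 (0.50, adjusted p = 0.26). With single arrays left out these changes were 0.44 to 0.78 with C and 0.26 to 0.73 with P/C.

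**Figure D5:**
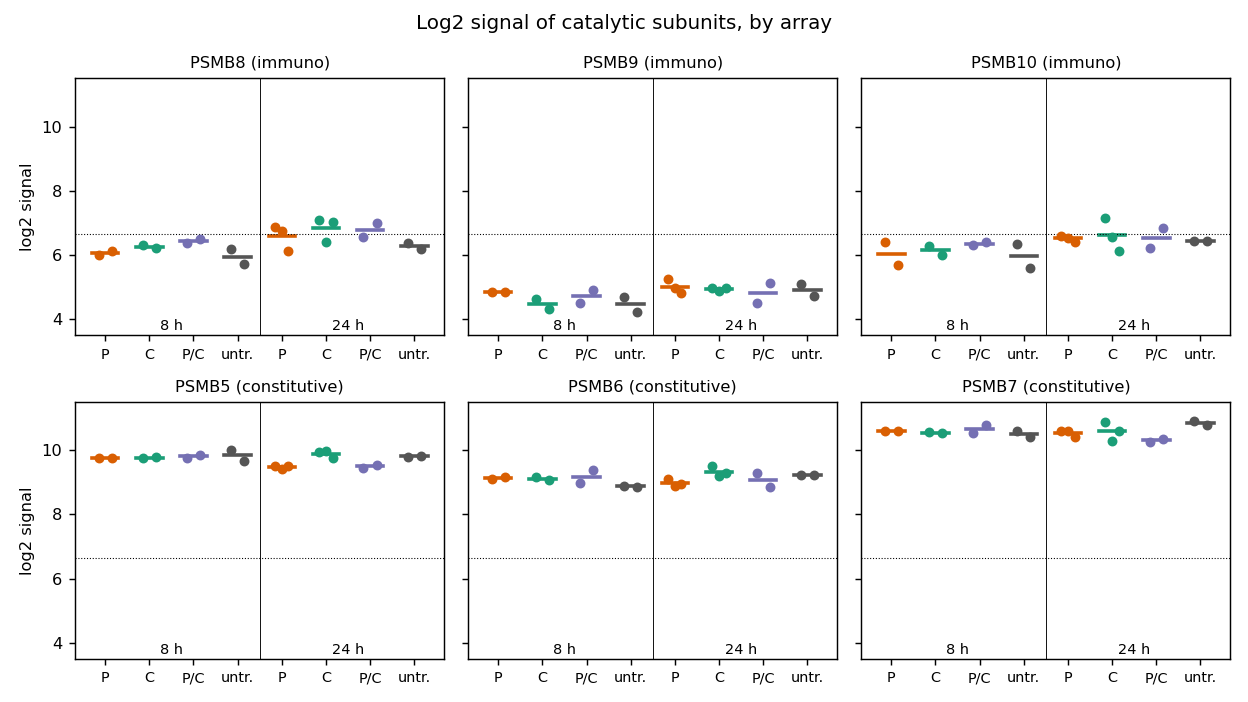
Log2 signal of the immunoproteasome subunits PSMB8, PSMB9 and PSMB10 (above) and of PSMB5, PSMB6 and PSMB7 (below) on each array (points) with the group means (bars). The dotted line is a signal of 100. The immunoproteasome subunits lie around or under that line in every group, and the constitutive ones at 8.85 or more.

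In the other regulators no tested probe set passed the limit on p. PSME1, the interferon-induced activator subunit, had 8.44, 8.65 and 8.25 with P and 8.39 and 7.72 in untreated cells (0.40, adjusted p = 0.28), with overlap. The activator PSME4 had 1 bright probe set, 212219_at, with 8.07, 7.68 and 8.20 in P and 7.82 and 7.82 in untreated cells (0.16). Its probe set 212220_at was at -0.17, while the dim 212222_at had 3.65, 4.24 and 3.72 with P and 5.71 and 4.86 in untreated cells (-1.42, adjusted p = 0.047, fit on all probe sets). Its call was lost without any 1 of these 5 arrays (-1.84 to -0.995, adjusted p up to 0.34). The inhibitor PSMF1 had 7.30, 7.16 and 7.02 with P and 7.33 and 6.11 in untreated cells for 201052_s_at (0.43), where the untreated arrays differed by more than the groups did. Without untreated 24 h replicate 1 this was 1.05 (adjusted p = 0.045). Its other probe set, 201053_s_at, was at -0.45 (adjusted p = 0.33, fit on all probe sets). Of the genes that share only the name, PSMC3IP 213951_s_at had 3.62, 3.99 and 4.09 with P and 5.55 and 6.45 in untreated cells (-2.10, adjusted p = 0.0079, fit on all probe sets), and PSME3IP1 had 5.14, 5.51 and 4.97 with P and 6.19 and 6.33 in untreated cells (-1.05, adjusted p = 0.023, fit on all probe sets).

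With both drugs at 24 h the leading probe sets of PSMD12 and PSMC2 were called again, with smaller changes. P, C and P/C were each set against the same 2 untreated arrays of their time, so that these comparisons share their controls. The calls were 2 of 31 members (6.45%), both lower, against 4.22% of all tested probe sets called lower. PSMD12 202353_s_at changed by -2.47 (SE 0.33, adjusted p = 0.0015) and PSMC2 201067_at by -1.30 (SE 0.38, adjusted p = 0.041). The 2 P/C arrays disagreed, as their values above show. Without P/C replicate 3 the change of PSMC2 201067_at was -0.63 (adjusted p = 0.32) and that of PSMD12 202353_s_at -1.78, and without P/C replicate 1 they were -1.98 and -3.15. Without either untreated array PSMD12 202353_s_at was the only member called. At any fold change 3 members were lower (9.68%, against 6.18% of all). The third was PSMD6, of the lid, with 8.64 and 9.23 in P/C, 9.36, 9.61 and 9.46 in P, and 9.68 and 9.93 in untreated cells (-0.87 with P/C, SE 0.23, adjusted p = 0.030). Its change was -1.16 and called without P/C replicate 3, and -0.58 (adjusted p = 0.13) without P/C replicate 1. PSMD6 was lower on both P/C arrays than on any P array. The PSME3 probe sets, lower with P, had log2 fold changes with P/C of -0.47, -0.29, 0.08 and -0.25, none at an adjusted p under 0.25, and that of 200987_x_at was -0.93 to -0.02 with single arrays left out. Over all 62 probe sets the median with P/C was -0.26 (13 higher, 49 lower), against 0.00 for all 22215 probe sets, and without P/C replicate 3 it was -0.18 (21 higher, 41 lower). Among probe sets with a mean signal of at least 100, the members had medians of -0.18 on P/C replicate 1 and -0.28 on replicate 3. All such probe sets had -0.10 and -0.02.

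Cisplatin alone gave no call among the members and none on the array (0%). 4 members had an unadjusted p under 0.05 in limma, both probe sets of PSMD12 lower and PSMB8 and PSMC4, a base ATPase, higher. PSMB8 entered the test only through arrays of treated cells at 24 h where it was high, so that its p here is no separate support. The share of all probe sets at this limit is not given. The log2 fold change of PSMD12 202353_s_at was -0.99 (SE 0.30, adjusted p = 0.24), and the 3 C arrays lay below both untreated arrays. Without C 24 h replicate 1 the change was -1.16 and the probe set was called (adjusted p = 0.048). The median over the 62 probe sets was -0.05, with 28 higher and 34 lower, and -0.09 to -0.01 with single arrays left out. For all 22215 probe sets it was 0.01. At a mean signal of at least 100 it was -0.08 over the members and -0.06 over all such probe sets.

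Set against each other, P/C and the single drugs did not differ in any member by the call. Against P, with 0.164% of all probe sets called, P/C was higher by 1.39 (SE 0.30) in PSMD12 202353_s_at and by 1.46 (SE 0.35) in PSMC2 201067_at, both at an adjusted p of 0.054, and 6 members had an unadjusted p under 0.05. The 95% intervals of these differences ran from 0.75 to 2.03 and from 0.72 to 2.20. Both were called without P/C replicate 3, together with PSME3 209853_s_at. Against C, with 0.0981% of all called, P/C was lower by 1.48 (difference -1.48, SE 0.30, adjusted p = 0.085) in PSMD12 202353_s_at, and 3 members had an unadjusted p under 0.05. Without P/C replicate 1, PSMD12 202353_s_at and PSMC2 201067_at were called lower than with C. The percentages here are of calls, and the share of all probe sets at an unadjusted p under 0.05 is not given. Over the 62 probe sets the median of P/C against C was -0.21 (13 higher, 49 lower), against -0.01 for all 22215. At a mean signal of at least 100 it was -0.20 over the members (10 higher, 35 lower) and -0.01 over all such probe sets. By array, such members had medians of 0.03, -0.08 and -0.15 with C and -0.18 and -0.28 with P/C. Against P the median over the 62 was 0.02 (35 higher, 27 lower).

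At 8 h no member was called with P (0.491% of all probe sets called), C (0%) or P/C (0.622%), and 3, 0 and 3 members had an unadjusted p under 0.05 in limma. These were PSMC2 201067_at, PSMD12 202353_s_at and PSMD4 200882_s_at with both P and P/C. The shares in brackets are of calls, and those at an unadjusted p under 0.05 are not given. The probe sets of PSMD12 and PSMC2 that led at 24 h had log2 fold changes of the same sign. PSMD12 202353_s_at had 6.48 and 6.50 with P, 8.27 and 8.06 with C, 6.81 and 6.98 with P/C, and 7.78 and 7.90 in untreated cells. Both P and both P/C arrays were below the untreated arrays, and both C arrays above them. The log2 fold change with P was -1.35 (adjusted p = 0.11, SE 0.33). With P/C it was -0.94 (adjusted p = 0.26, SE 0.33). The replicate numbers pair the 8 h arrays, and with the number as a block in the 8 h arrays alone the change with P was called (adjusted p = 0.0060, with 1.18% of all probe sets called lower). PSMC2 201067_at had 6.71 and 6.64 with P, 7.68 and 6.99 with C, 6.52 and 6.07 with P/C, and 8.04 and 7.25 in untreated cells. Its change with P/C, -1.35 (SE 0.38, adjusted p = 0.16), was called under the block (adjusted p = 0.012, with 1.57% of all called lower). The dim PSMD11 208776_at had 3.01 and 3.05 with P, 4.63 and 4.02 with C, 3.13 and 2.95 with P/C, and 4.38 and 4.20 in untreated cells (adjusted p = 0.23 with P, fit on all probe sets).

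The small shift over many members was not seen at 8 h over the members as a whole. With P 33 of the 62 probe sets were higher and 29 lower (median 0.01, against -0.02 for all 22215), and with P/C 36 were higher and 26 lower (median 0.05). The roles were not alike. With P the medians were -0.12 in the lid (2 higher, 6 lower) and -0.09 in the base ATPases (2 higher, 4 lower). They were 0.10 in the alpha ring (7 higher, 3 lower) and 0.10 in the beta ring (7 higher, 4 lower). At a mean signal of at least 100 the lid had -0.04. The 3 bright probe sets of PSMD4 had log2 fold changes of 0.30 to 0.54 with P at 8 h, at adjusted p values of 0.39 to 0.74. The effect of P differed between 24 h and 8 h by the call in PSMD12 202353_s_at alone, by -2.51 (SE 0.45, adjusted p = 0.048), with 0.196% of all probe sets called lower in this comparison. This call did not hold when any 1 of the 9 arrays in it was left out (-2.64 to -2.38, adjusted p up to 0.38). The effect of P/C did not differ between the times in any member (0.0654% of all called, 2 members with an unadjusted p under 0.05). Untreated cells at 24 h and 8 h did not differ in any member either (0.0981% of all called, 0 members with an unadjusted p under 0.05).

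Genes around the proteasome were taken from lists made by role. Of 16 tested probe sets of partners and of the transcription factors of the proteasome genes, 2 were called higher (3.14% of all tested probe sets were) and 2 lower, a share of the list close to the 11.4% of all called lower, with P at 24 h. Both that rose were of NFE2L1, the factor that raises proteasome transcription when the particle is inhibited, with means of 8.89 with P and 7.19 in untreated cells for 200758_s_at (1.70, adjusted p = 0.0019) and of 9.56 with P and 8.10 in untreated cells for 200759_x_at (1.46, adjusted p = 0.0026). UCHL5, a deubiquitinase of the cap, fell (219960_s_at, means of 6.25 with P and 7.41 in untreated cells, -1.16, adjusted p = 0.0030), as did 208648_at of VCP, the unfolding ATPase that feeds substrates to the particle (-1.0, adjusted p = 0.036). With P/C the first NFE2L1 probe set (1.36, adjusted p = 0.031) and UCHL5 (-1.06, adjusted p = 0.025) were called in the same directions, with 2.65% of all called higher and 4.22% lower. Of 6 tested probe sets of ubiquitin and its enzymes, 201523_x_at of the conjugating enzyme UBE2N was called lower with P (-1.19, adjusted p = 0.0022), which is 16.7% of a list of 6, against 11.4% of all. NFE2L1, UCHL5, VCP and UBE2N have further probe sets on the array, which were not called or did not enter the test. Their values are not given here, so that these changes are those of the named probe sets. Of 8 tested probe sets of antigen processing, which uses the peptides that the immunoproteasome makes, 0 were called and 5, of HLA-C and HLA-E, were higher with P at any fold change, by 0.68 to 0.96 (62.5%, against 5.95% of all). The 5 are of 2 genes of a family with near-identical members. No member of any of the 3 lists was called with C at 24 h or with any drug at 8 h.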

How the data were processed

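The 18 HGU133A arrays hold 2 or 3 biological replicates of MSTO-211H cells in each of 8 groups by drug and time. The values deposited by the authors are log2 signals that GCRMA made from the probe intensities, with background correction and quantile normalization over the arrays. A version of GCRMA was not given in the sources used here. Array medians were 2.72 to 2.83. An array gives no depth, so that the number of arrays limits the precision.

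From these values 68 control probe sets were left out. Probe sets were kept when the interquartile range was 0.25 or more and the signal reached 100 on 25% of the arrays or more. These are the limits in the study's methods, applied here to the deposited values, where they left 3057, which is not the number that the study kept. A linear model with 1 mean for each of the 8 groups was fitted to all 18 arrays with limma 3.58.1 in R 4.3.3, with 10 residual and 5.76 prior degrees of freedom, and 11 comparisons were drawn from it. P-values were moderated, two-sided and adjusted by Benjamini-Hochberg over all probe sets of the fit, in each comparison on its own. Members that the filter left out were taken from the same fit on 22215 probe sets. The steps were run on simulated data with independent noise in each probe set and changes in the P 24 h group alone. That setting holds no deviations shared between arrays, so it does not show how these affect the calls. Gene symbols came from the platform annotation, and members with 1 matching symbol only were used.

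The members, their roles and the lists of partner genes were chosen with earlier results of these data known. Named in full were probe sets called in any comparison, all probe sets of their genes and of PSMD12, the immunoproteasome subunits and their counterparts, the activators and inhibitor, and the member of each role with the highest and lowest change with P at 24 h. Others were named after their values were seen, among them PSMD6, PSMB4, and the dim probe sets of PSMA2 and PSMD11.

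Replicate numbers were checked as pairs by the correlation of deviations from group means. At 8 h it was 0.20 to 0.66 over 6 distinct correlations (12 pairs of arrays with the same number, mirrored in groups of 2), and the numbers were taken to pair the arrays. At 24 h it was -0.22 to 0.39 over 12 pairs, of mixed sign, and the numbers were not taken to pair the arrays. Alternatives were other filters, scalings, array weights, the replicate number as a block, only the arrays of a comparison, and each array left out in turn. Promoter windows and chromosome positions are those of RefSeq on GRCh38.p14, in tables given for the purpose.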

Additional observations from a re-analysis of the deposited data

Results flagged for a closer look

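The effect of piroxicam on PSMD12 202353_s_at was larger at 24 h than at 8 h by the test of that difference. The difference of the log2 fold changes was -2.51 (limma adjusted p = 0.048), from -3.86 at 24 h and -1.35 at 8 h. Both P groups lay below the untreated arrays of their time on every array. This call was lost in each fit with 1 array left out (-2.64 to -2.38, adjusted p up to 0.38), without a filter, with the signal filter alone, after quantile normalization and with the replicate block over all arrays. The other PSMD12 probe set, 202352_s_at, had a difference of -0.35 (adjusted p = 0.72).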

How the results depend on the processing

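Over the 11 counts of called members, 124 values under an alternative stayed within 1.5 times the value given and 40 did not. Over the changes of single probe sets, 664 kept their side of the threshold and direction, 36 lost the call, 20 gained it and 18 turned in sign. The cause was not tested in any of these. With P at 24 h, the 3 called members became 8 without a filter and 8 at any fold change, and 2 to 5 with single arrays left out. With P/C at 24 h the 2 became 1 with the signal filter alone, with a signal of at least 200, with array weights, with the replicate block over all arrays and with only the arrays of the comparison, 3 at any fold change, and 1 to 2 with single arrays left out. With C at 24 h the 0 became 1 with array weights and 1 without both the first C and the first P/C array of 24 h, and 0 to 1 with single arrays left out. With P at 8 h the 0 became 1 with array weights, with the block within 8 h and with only the arrays of the comparison, and with P/C at 8 h 1 with either replicate block. For P/C against P the 0 became 1 with a signal of at least 200 and 2 with the block over all arrays, and 0 to 3 with single arrays left out. For P/C against C it became 1 after quantile normalization, 2 without both arrays and 0 to 2 with single arrays left out. For the effect of P at 24 h against 8 h the 1 became 0 without a filter, with the signal filter alone, after quantile normalization, with the block over all arrays and in each fit with 1 array left out (0 to 0), and 2 with only the arrays of the comparison. For the effect of P/C over time the 0 became 1 without both arrays and 0 to 1 with single arrays left out. The change of PSMD8 200820_at with P at 24 h was -0.012 with each array centred on its median and -0.014 with array weights. With P/C at 24 h PSME3 200988_s_at was 0.038 and 209852_x_at -0.072 under the replicate block over all arrays, and 209852_x_at was -0.28 without both arrays. With single arrays left out, the changes with P ran from -0.083 to 0.18 in PSMA1 201676_x_at, -0.082 to 0.10 in PSMD8, -0.089 to 0.30 in PSMB9, -0.18 to 1.05 in PSMF1 201052_s_at, -0.011 to 0.20 in PSMD4 210459_at and -0.37 to 0.11 in PSME4 212220_at, and with P/C from -0.29 to 0.45 in PSME3 209852_x_at, -0.97 to 0.39 in 200988_s_at and -0.69 to 0.19 in 209853_s_at. The fits without both arrays and those at any fold change were chosen after seeing the data. Groups of 2 arrays limit every comparison.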
